A study of Mus musculus with 6 samples.

Results

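Messenger RNAs for the nuclear-encoded subunits of the mitochondrial respiratory chain and ATP synthase were compared between hearts of male C57BL/6 mice fed a high fat diet (HFD, 60% kcal from fat, n = 3) and hearts of male C57BL/6 mice fed standard chow (normal diet, ND, n = 3). Feeding started at 4 weeks of age and lasted 4 months in both groups. RNA of each heart was hybridised to 1 Agilent array with 1 dye (Cy3), and the labels name no transgene or drug. The members were the array probes whose gene name starts with Ndufa, Ndufb, Ndufc, Ndufs, Ndufv, Uqcr, Cox4 to Cox8 or Atp5, or is Sdha, Sdhb, Sdhc or Sdhd. They came to 90 genes on 126 probes, of 36163 gene names on 55681 probes other than controls.

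The respiratory chain sits in the inner mitochondrial membrane. Complex I takes electrons from NADH and complex II takes them from succinate, and both pass them through ubiquinone to complex III, cytochrome c and then complex IV, which reduces oxygen to water. Complexes I, III and IV pump protons, and complex V, the ATP synthase, lets them flow back to make ATP. Most subunits are nuclear genes read by cytosolic ribosomes, while a small core is encoded by mitochondrial DNA and made by mitochondrial ribosomes. The heart depends on this system for nearly all of its ATP, and several complex IV subunits have a heart and skeletal muscle isoform beside a general one.

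By complex, the members were 42 genes of complex I, 4 of complex II, 8 of complex III, 19 of complex IV and 17 of complex V. The complex was read from the start of the gene name alone, and only on that ground were Ndufa4 and Ndufa4l2 counted with complex I. The name pattern also took 7 genes that are no subunits: the complex I assembly factors Ndufaf1, Ndufaf2, Ndufaf3 and Ndufaf4, and Cox4nb, Atp5s and Atp5sl, which carry other symbols today. A gene was read by its tested probe with the highest mean level, and a level is the log2 intensity minus the 75th percentile of its array. Of the 90 genes, 89 passed the filter on dim probes, and all 89 were well above background on all 6 arrays. Cox8c, the testis isoform of a complex IV subunit, did not rise well above background in any of the 6 hearts.

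Of the 6 arrays, 49.2% to 52.9% of the probes were well above background, none of the spots was saturated, and arrays of the same diet correlated with r of 0.990 to 0.995 across probes. The 6 arrays shared 1 slide. Row 1 of it held HFD 1 and HFD 2, and row 2 held HFD 3 and the 3 ND hearts. Ventricular and general cardiomyocyte markers had mean levels of 8.39, 8.41 and 8.41 in the ND hearts. They were at 8.39 in HFD 1, 8.48 in HFD 2 and 8.24 in HFD 3, so the highest and the lowest were HFD hearts. HFD 2 stood apart for other tissues of the heart. Its 4 atrial markers had a mean level of 1.23, against 4.73 to 7.89 in the other 5 hearts, and its 4 tested white adipocyte markers had a mean level of -4.04, against -1.80 to -0.20. The slope of the spike-in controls was 0.896 on its array and 0.921 to 0.958 on the others. In bulk tissue, fewer cells of a type and less RNA per cell cannot be told apart. The p-values measure only the spread between these 6 hearts.

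No respiratory chain or ATP synthase gene changed after correction for the number of probes tested, and the differences were small. Of the 89 genes, 80 were lower and 9 were higher in sign in HFD hearts. Their median log2 fold change was -0.076, and single genes ran from -0.28 for Cox7b2 to 0.057 for Sdhc. Over all 20569 genes tested, 52.5% were lower and the median was -0.0097. At an unadjusted p below 0.05 in limma, 0 members were higher, where 5.10% of all genes were, and 4 members (4.49%) were lower, where 6.71% of all genes were. The share of members called lower was therefore not above the background. After Benjamini-Hochberg adjustment over 27587 probes, 0 members passed, where 0.0146% of all genes did, and the lowest adjusted p of a member was 0.299. All 3 HFD hearts lay below all 3 ND hearts for 8 members (8.99%), where this held for 11.4% of all genes. All HFD hearts lay above all ND hearts for 0 members, where this held for 8.01% of all genes.

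The arrays bounded the size of a change for most members. The 95% confidence interval of the fold change stayed within 1.5-fold in either direction for 88 of the 89 genes, and within 1.2-fold for 32. The exception was Cox7b2, a complex IV isoform gene known from testis, whose probe gave dim and scattered signal (log2 fold change -0.28, 95% interval -1.14 to 0.59). The median standard error of a member was 0.084 on the log2 scale.

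**Figure D1:**
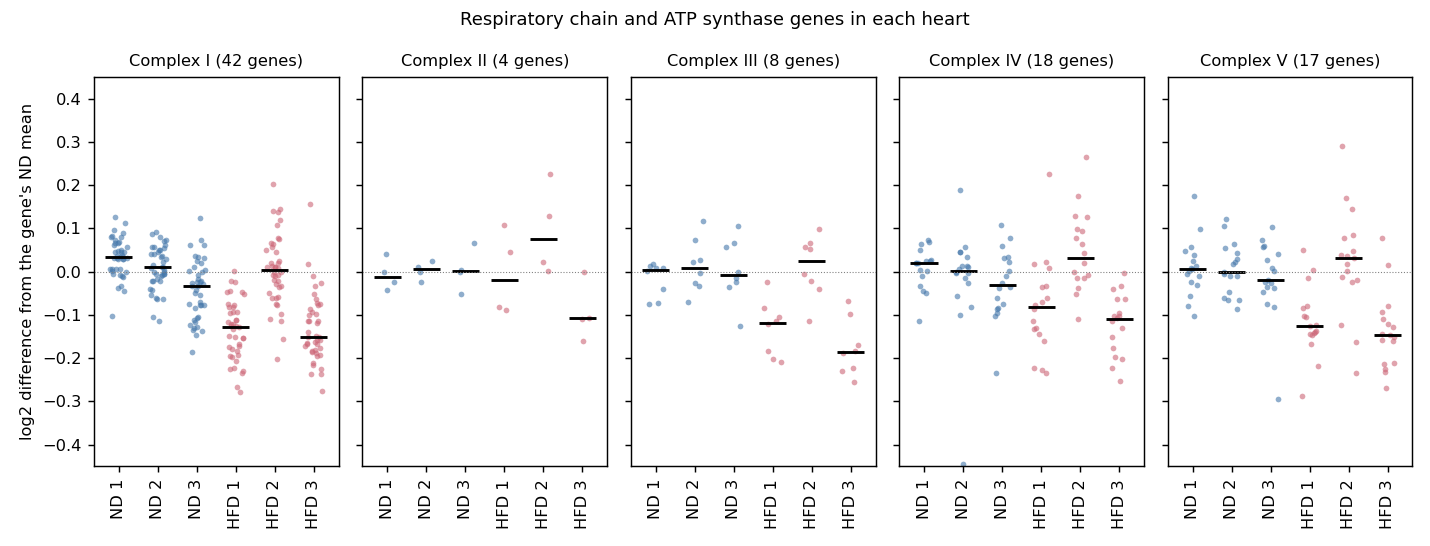
Each point is 1 member gene in 1 heart, as its level minus the mean of the 3 ND hearts (log2), with the genes grouped by complex and the hearts side by side, and bars mark the medians. HFD 1 and HFD 3 have medians below 0 in all 5 complexes, while HFD 2 has medians of 0.0046 to 0.075. The axis ends at 0.45 in either direction, and Cox7b2 has points outside it.

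The lower sign was not shared equally by the HFD hearts. Relative to the ND mean, the median member was at -0.12 in HFD 1, 0.012 in HFD 2 and -0.15 in HFD 3 (log2), while the ND hearts were at 0.021, 0.0062 and -0.025. HFD 2 had the highest level of the 3 HFD hearts for 77 of the 89 members (86.5%), where it did so for 47.4% of all genes. HFD 1 and HFD 3 both lay below all ND hearts for 59 members (66.3%), against 20.9% of all genes. Without HFD 1, 70 members were lower in sign, the median was -0.062 and 2 members (2.25%, against 5.79% of all genes) were called lower. Without HFD 3 the values were 68, -0.053 and 1 (1.12%, against 5.46% of all genes). Leaving out HFD 2, the highest HFD heart for most members, lowers their HFD mean. Without HFD 2, 86 members were lower in sign and the median was -0.13. Then 10 members (11.2%, against 7.0% of all genes) were lower at an unadjusted p below 0.05, with a lowest adjusted p of 0.317 in limma. Those 10 were Ndufa12, Ndufs7, Ndufs8, Ndufa11, Ndufa9 and Ndufs5 of complex I, Ndufa4, counted with complex I by its name, Uqcrc1 of complex III, and Cox7a1 and Cox7b of complex IV. Row 1 of the slide held no ND heart. Within row 2, where HFD 3 stood against the 3 ND hearts, 85 members were lower in sign and the median was -0.15. In that contrast 0 members were called lower, where 4.79% of all genes were, and with 1 HFD heart its precision is low. The part of the marker, spike-in and slide differences in these values was not tested.

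The lower sign also depended on the scaling between arrays. With quantile normalization, 53 of the 89 members were lower in sign and the median was -0.018, and the table of log2 values that the authors deposited gave 53 lower and a median of -0.022. The HFD hearts then lay closer together: the median member was at -0.030 in HFD 1, -0.021 in HFD 2 and -0.028 in HFD 3, and HFD 2 was the highest of the HFD hearts for 31 members. Correcting the background by normexp left 77 members lower, a median of -0.071 and HFD 2 highest for 69 members. Whichever scaling was used, 0 members were higher at an unadjusted p below 0.05.

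**Figure D2:**
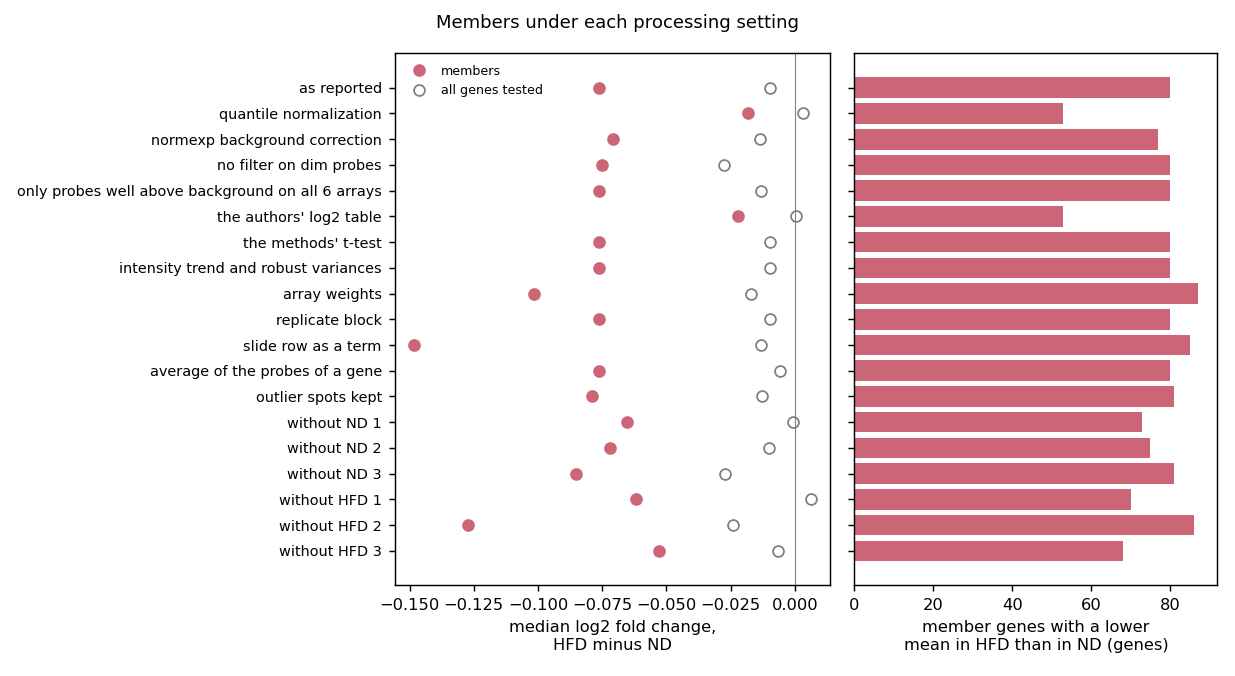
For the reported processing and each alternative, including each heart left out, the left panel plots the median log2 fold change (HFD minus ND) of the members and of all genes tested, and the right panel the number of members with a lower mean in HFD. The median of the members runs from -0.15 with a slide row term to -0.018 with quantile normalization, and the members lower in sign number 53 to 87.

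Of the 42 genes of complex I, the entry point for NADH, 39 were lower in sign, with a median log2 fold change of -0.092. Called lower were 3 of the 42 (7.14%, against 6.71% of all genes): Ndufs8, Ndufa11 and Ndufaf3, the last of which is no subunit. Ndufs8 is an iron-sulfur subunit of the arm that carries electrons from NADH to ubiquinone. Its level was 5.93, 5.85 and 5.92 in the ND hearts and 5.67, 5.70 and 5.66 in the HFD hearts. The highest HFD heart was below the lowest ND heart, and HFD 2 did not stand apart from the other HFD hearts for this gene. The group means were 5.90 ± 0.05 and 5.68 ± 0.02 (SD, n = 3 each), and the log2 fold change was -0.22 (SE 0.06), or 85.7% of ND with a 95% interval of 76.9% to 95.5% (limma, unadjusted p = 0.0129, adjusted p = 0.299). The deposited intensities, before any scaling, were 27631 to 29586 in ND and 23397 to 27323 in HFD hearts. Such unscaled values also carry the brightness of the array, whose 75th percentile was 453 for HFD 2 and 544 for HFD 3. Of the 4 members called lower, Ndufs8 was the one whose call held in most of the 18 alternatives (16 of 18).

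Ndufa11 is an accessory subunit in the membrane arm of complex I. Its level was 6.46, 6.40 and 6.39 in ND and 6.22, 6.30 and 6.22 in HFD hearts, with a log2 fold change of -0.17 (SE 0.07; limma, unadjusted p = 0.0449, adjusted p = 0.414). Ndufaf3, an assembly factor that is not part of the finished complex, was at 3.21, 3.15 and 3.15 in ND and 3.04, 3.01 and 2.96 in HFD hearts, with a log2 fold change of -0.16 (SE 0.07; limma, unadjusted p = 0.0457, adjusted p = 0.417). For both genes all HFD hearts lay below all ND hearts, but each call held in 8 of 18 alternatives, and neither gene passed the unadjusted limit with quantile normalization. Across the alternatives the log2 fold change of Ndufa11 ran from -0.20 to -0.13 and that of Ndufaf3 from -0.21 to -0.14. The unscaled intensities of Ndufa11 overlapped, with 39904 to 42596 in ND and 35637 to 40305 in HFD hearts. Those of Ndufaf3 did not, with 4220 to 4493 in ND and 3642 to 4212 in HFD hearts.

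Ndufa12, Ndufs7 and Ndufa9 also had all HFD hearts below all ND hearts without passing the unadjusted limit. Ndufa12, an accessory subunit of the matrix arm, was at 8.42, 8.42 and 8.39 in ND and 8.14, 8.35 and 8.13 in HFD hearts (log2 fold change -0.20, SE 0.08; limma, unadjusted p = 0.0520). Ndufs7, which carries the last iron-sulfur cluster before ubiquinone, was at 8.78, 8.75 and 8.73 in ND and 8.47, 8.68 and 8.56 in HFD hearts (log2 fold change -0.18; limma, unadjusted p = 0.0546). In both, HFD 2 was the HFD heart nearest to ND. Ndufa12 passed the unadjusted limit in 7 of 18 alternatives. Ndufa9, a matrix arm subunit, had a log2 fold change of -0.14. The complex I assembly factors Ndufaf1, Ndufaf2 and Ndufaf4 had log2 fold changes of -0.15, -0.10 and -0.038, with HFD and ND hearts overlapping.

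The probes behind the 4 members called lower are shown by their first 30 of 60 bases, read from the array files and placed on mm9, so that the transcript stretch measured can be found. No part of these sequences is marked. The interval of the Ndufaf3 probe is longer than its 60 bases.
Ndufs8, chr19:3911177-3911236, minus strand: caggagtctgaggtggacatgaagtccgca
Ndufa11, chr17:56857241-56857300, plus strand: ggccgagcaagcccagctaggtatggcgat
Ndufaf3, chr9:108468692-108468899, minus strand: ggtccagtggaacgtgggatctcatcagga
Atp5d, chr10:79608230-79608289, plus strand: acgggctgagatccagatccgtattgaggc

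Complex II, succinate dehydrogenase, is also an enzyme of the citrate cycle and has no mitochondrially encoded subunit. None of its 4 genes was called, and 3 of the 4 were higher in sign. Sdha, the flavoprotein that oxidises succinate, was at 7.03, 7.05 and 7.14 in ND and 6.98, 7.30 and 6.96 in HFD hearts (log2 fold change 0.010, 95% interval -0.26 to 0.28). Sdhb, the iron-sulfur subunit, was at 8.31 in all 3 ND hearts and at 8.42, 8.33 and 8.20 in HFD hearts (0.0069, -0.18 to 0.20). The spread among HFD hearts was wider than the difference between diets for both. Of the membrane anchors, Sdhc was at 7.07, 7.04 and 6.98 in ND and 7.08, 7.16 and 7.03 in HFD hearts (0.057, -0.11 to 0.23), and Sdhd was at 7.30, 7.34 and 7.32 in ND and 7.24, 7.32 and 7.16 in HFD hearts (-0.080, -0.26 to 0.09). The intervals of all 4 genes held 0. A second probe of Sdhb had a log2 fold change of -0.13 (limma, unadjusted p = 0.121), so the sign of Sdhb depends on the probe. The signs of Sdha and Sdhb also turned where array weights or a slide row term were used.

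Complex III hands electrons from ubiquinol to cytochrome c. All 8 of its genes were lower in sign, from -0.15 for Uqcrq to -0.037 for Uqcrfs1. Their median log2 fold change was -0.092, and 0 were called. Uqcrq, a small accessory subunit, was at 8.30, 8.34 and 8.48 in ND and 8.19, 8.33 and 8.15 in HFD hearts. Uqcrc1, a core protein, was at 6.93, 6.94 and 7.04 in ND and 6.76, 6.95 and 6.79 in HFD hearts, with a log2 fold change of -0.14. Uqcr10, another small subunit, was at 8.01, 7.92 and 8.05 in ND and 7.79, 7.99 and 7.81 in HFD hearts, with a log2 fold change of -0.13. In all 3 genes HFD 1 and HFD 3 were below the ND hearts and HFD 2 was among them. The size of 2 of these falls depends on the probe. The other tested probe of Uqcrq had a log2 fold change of -0.0022, and the 3 probes of Uqcr10 ran from -0.13 to -0.036.

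Complex IV, cytochrome c oxidase, had a median log2 fold change of -0.048. Of its 18 tested genes, 16 were lower in sign and 0 were called. Cox7a1, the heart and skeletal muscle isoform of the subunit VIIa, was at 9.59, 9.49 and 9.63 in ND and 9.33, 9.57 and 9.35 in HFD hearts (log2 fold change -0.15, SE 0.09; limma, unadjusted p = 0.148). HFD 2 again lay among the ND hearts. Its general counterpart Cox7a2 was at 7.21, 7.24 and 7.27 in ND and 7.08, 7.37 and 7.12 in HFD hearts (-0.049, SE 0.10). The muscle isoform Cox6a2 was at 9.55, 9.61 and 9.62 in ND and 9.62, 9.67 and 9.46 in HFD hearts, and its general counterpart Cox6a1 was at 8.14, 8.17 and 8.03 in ND and 8.12, 8.08 and 8.08 in HFD hearts. Neither moved beyond the spread between hearts, with log2 fold changes of -0.0097 and -0.020. Cox4i1, the general isoform of subunit IV, and Cox4i2, its lung and hypoxia isoform, had log2 fold changes of -0.028 and -0.047. Cox8a and Cox8b had -0.032 and -0.033, and Cox6b1 and Cox6b2 had -0.11 and -0.13. Cox4nb, which lies beside Cox4i1 and is no subunit, had -0.024. With quantile normalization Cox4i1, Cox6a1, Cox6a2, Cox8a and Cox8b were higher in sign, each by at most 0.052, so none of them has a settled direction.

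Complex V held 1 member called lower, Atp5d, the delta subunit of the central stalk that turns inside the catalytic head. Its level was 7.28, 7.28 and 7.29 in ND and 7.18, 7.12 and 7.05 in HFD hearts. The ND hearts were at 7.28 ± 0.01 and the HFD hearts at 7.12 ± 0.06 (SD, n = 3 each), and all HFD hearts lay below all ND hearts. The log2 fold change was -0.17 (SE 0.07), or 89.1% of ND (limma, unadjusted p = 0.0466, adjusted p = 0.418), and the call held in 7 of 18 alternatives, with values from -0.23 to -0.13. The deposited intensities of Atp5d were 74619 to 75218 in ND and 62813 to 74031 in HFD hearts.

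Of the 17 complex V genes, 16 were lower in sign, with a median log2 fold change of -0.072. The median turned to 0.0079 with quantile normalization and to 0.0052 in the authors' table, so the complex as a whole has no settled direction. The catalytic beta subunit Atp5b had a log2 fold change of -0.0057 and the alpha subunit Atp5a1 one of -0.042. Atp5h, a subunit of the peripheral stalk, was at 8.54, 8.44 and 8.60 in ND and 8.31, 8.51 and 8.38 in HFD hearts (-0.12, SE 0.09; limma, unadjusted p = 0.196), with HFD 2 among the ND hearts. Atp5f1, the b subunit of the same stalk, was at 7.02, 7.10 and 7.10 in ND and 6.94, 7.09 and 6.92 in HFD hearts, with a log2 fold change of -0.090. Atp5s and Atp5sl, which are no subunits of the enzyme, had log2 fold changes of -0.15 and -0.17, and for Atp5sl all HFD hearts lay below all ND hearts. Without the 7 genes that are no subunits, 73 of 82 genes were lower in sign, the median was -0.074 and 3 were called lower.

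**Figure D3:**
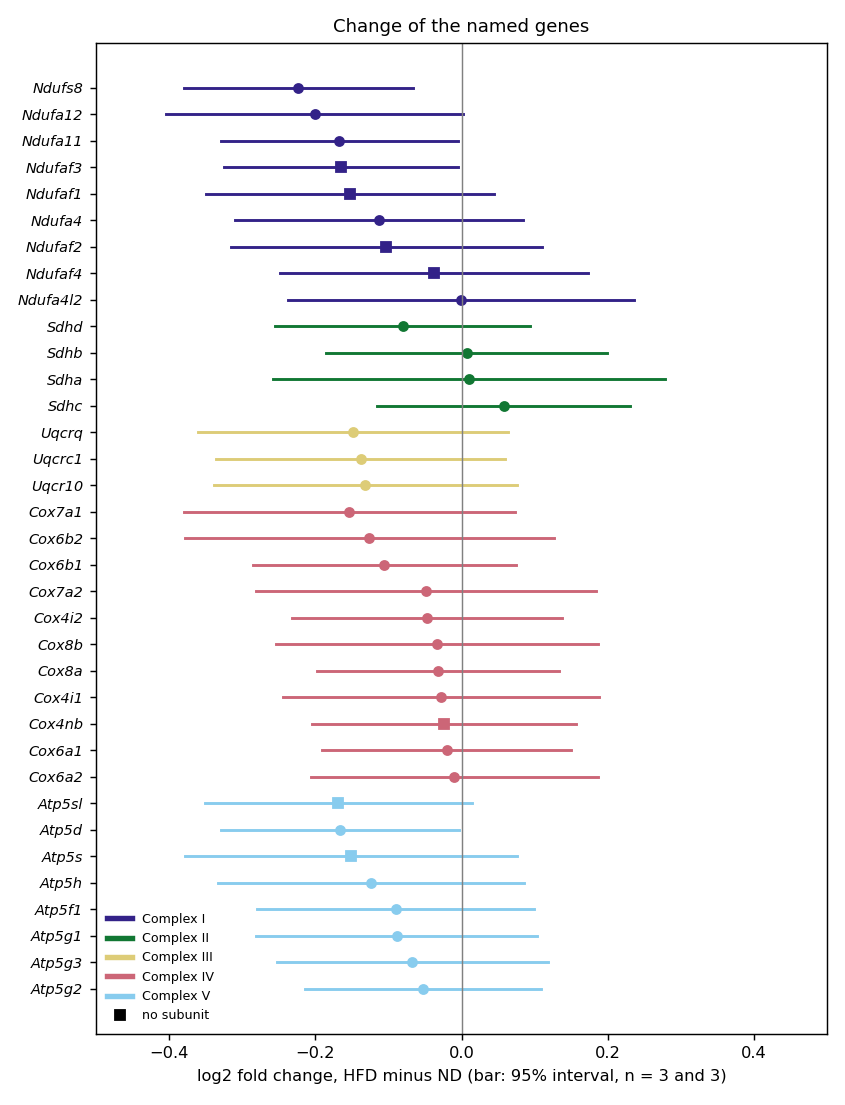
Log2 fold changes (HFD minus ND) of the named genes, grouped by complex, are drawn as points with 95% confidence intervals from limma. The intervals of Ndufs8, Ndufa11, Ndufaf3 and Atp5d end below 0 and those of the other genes drawn hold 0. Cox7b2 is left out because its interval runs from -1.14 to 0.59.

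No unequal change of the isoforms of 1 subunit beyond the spread between hearts was found. For each of 8 isoform pairs, the difference of the 2 log2 levels was taken within each array and compared between diets by a two-sided exact permutation test, which with 3 hearts against 3 cannot give a p below 0.10. The largest changes were 0.11 for Ndufa4l2 to Ndufa4 (exact p = 0.50), the first of which is an isoform known from low oxygen, and -0.10 for Cox7a1 to Cox7a2 (exact p = 0.20). Relative to the ND mean, the Cox7a1 to Cox7a2 difference was 0.053, -0.080 and 0.026 in the ND hearts and -0.074, -0.13 and -0.11 in the HFD hearts, so HFD 1 overlapped ND 2. The Ndufa4l2 to Ndufa4 change rested on HFD 3, which was at 0.34, while HFD 1 and HFD 2 were at 0.023 and -0.027. The remaining 6 pairs (Cox4i2 to Cox4i1, Cox6a2 to Cox6a1, Cox8b to Cox8a, Cox6b2 to Cox6b1, and Atp5g1 and Atp5g2 to Atp5g3) changed by -0.021 to 0.014, with exact p of 0.50 to 1. The adjusted p over the 8 pairs was 1 for each. Atp5g1, Atp5g2 and Atp5g3, which encode the same mature c subunit of the proton-driven ring, had log2 fold changes of -0.089, -0.053 and -0.067.

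Of the 26 member genes with several tested probes, 5 had probes that differed in sign: Sdhb, Ndufb11, Ndufb2, Cox7c and Cox7a2l. The least bright of the 3 probes of the complex I subunit gene Ndufb11 was still well above background on every array. It had a log2 fold change of 0.20, with all HFD hearts above all ND hearts (limma, unadjusted p = 0.0308, adjusted p = 0.378). It was the 1 member probe of 125 that was higher at the unadjusted limit. The brightest probe of the gene had -0.068. The direction of these 5 genes is uncertain. Probes that shared a sign could still differ in size, as for Uqcrq (-0.15 and -0.0022) and Atp5h (-0.12 and -0.067).

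Many promoters of respiratory chain genes are known to bind the factors NRF1, ERR alpha, GABPA (an ETS factor) and YY1. In windows from 250 bases before to 50 bases after the start (RefSeq, GRCm38.p6, both strands), which were found for 74 of the member genes, exact matches were counted to GCGCA followed by its reverse complement for NRF1, TCAAGGTCA for ERR, ACTTCCGG for ETS and AAGATGGCG for YY1. The NRF1 letters were present in 6 members (8.11%, against 1.07% of all 27025 genes with a window) and the YY1 letters in 8 (10.8%, against 1.64%). The ERR letters were present in 2 members (2.70%, against 0.466%) and the ETS letters in 5 (6.76%, against 4.31%). The median log2 fold change of members with and without the letters was -0.057 and -0.084 for NRF1, -0.074 and -0.084 for ERR, -0.10 and -0.081 for ETS, and -0.11 and -0.082 for YY1. The 250 bases before the start of Ndufa11, which was called lower, and of Atp5g3, which was not, are shown with the NRF1 letters of the first and the ERR letters of the second (on the other strand) in capitals. A match is a description of the letters and not of binding.
Ndufa11, chr17:56717512-56717761, plus strand: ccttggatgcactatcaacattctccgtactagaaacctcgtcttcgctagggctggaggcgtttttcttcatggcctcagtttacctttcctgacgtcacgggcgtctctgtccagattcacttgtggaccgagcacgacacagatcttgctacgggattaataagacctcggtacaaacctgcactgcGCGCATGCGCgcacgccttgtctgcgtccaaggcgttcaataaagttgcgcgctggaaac
Atp5g3, chr2:73911327-73911576, minus strand: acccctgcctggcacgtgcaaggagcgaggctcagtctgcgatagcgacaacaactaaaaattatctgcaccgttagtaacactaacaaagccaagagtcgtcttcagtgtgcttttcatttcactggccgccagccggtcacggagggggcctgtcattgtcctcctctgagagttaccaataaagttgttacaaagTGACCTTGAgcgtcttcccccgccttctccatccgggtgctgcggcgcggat

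The members were set beside other mitochondrial gene lists. Fatty acid oxidation, which feeds electrons into the chain through NADH and the electron transfer flavoprotein, was the list with the opposite sign: 12 of its 13 genes were higher, the median was 0.26 on the log2 scale, and 7 were called higher and 0 lower at an unadjusted p below 0.05. Decr1, an enzyme for unsaturated fatty acids, was at 7.88, 7.69 and 7.70 in ND and 8.15, 8.40 and 8.18 in HFD hearts (log2 fold change 0.48, SE 0.10; limma, unadjusted p = 0.0030, adjusted p = 0.216). All 3 HFD hearts, HFD 2 among them, were above the ND hearts for Decr1. Of all genes tested, 5.10% were called higher and 6.71% lower. With quantile normalization the list's median was 0.31, with 10 called higher and 1 lower, where 5.78% of all genes were called higher and 6.47% lower. With a slide row term, which leaves HFD 3 against the ND hearts, the list's median was 0.20, with 2 genes lower in sign. The citrate cycle enzymes had 8 of 13 genes lower, a median of -0.043 and 0 called. Their median turned to 0.027 with quantile normalization. It was -0.088 with a slide row term and -0.090 without HFD 2, each with 12 of 13 genes lower in sign.

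Mitochondrial ribosomal proteins, which make the mitochondrially encoded subunits, were lower in sign for 71 of 75 genes. Their median was -0.14 on the log2 scale, and 18 were called lower and 0 higher, where 6.71% of all genes were called lower and 5.10% higher. The 18 became 11 with quantile normalization (6.47% of all genes) and between 1 and 18 with 1 heart left out. The count was 1 of the 75 without ND 1 (4.10% of all genes), without ND 2 (4.17%) and without HFD 3 (5.46%). With a slide row term, which leaves HFD 3 against the ND hearts, their median was -0.17. The 12 mitochondrially encoded subunit transcripts had a median of -0.032, with 8 lower and 1 called. The median turned to 0.048 with quantile normalization and to 0.038 without HFD 3. It was -0.11 without HFD 2, with all 11 tested lower in sign, and -0.19 with a slide row term, with all 12 lower. The gene called was ND6, a complex I subunit, at -1.33, -1.05 and -1.26 in ND and -1.62, -1.62 and -1.50 in HFD hearts (log2 fold change -0.37, SE 0.10; limma, unadjusted p = 0.0087, adjusted p = 0.274). Its probe was much dimmer than those of the other mitochondrially encoded transcripts, with a mean ND level of -1.21 against 7.18 to 9.04.

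Assembly factors of the complexes had 24 of 27 genes lower, a median of -0.10 and 3 called lower, which became 1 without ND 1, without ND 2 or without HFD 3. Taco1, a translational activator of the mitochondrially encoded Cox1, had the largest of these falls, from 0.52, 0.40 and 0.44 in ND to 0.26, 0.15 and 0.081 in HFD hearts (log2 fold change -0.29, SE 0.08; limma, unadjusted p = 0.0112, adjusted p = 0.289). Of 9 other parts of the chain, 2 were called lower: Cycs, the electron carrier cytochrome c, with -0.25 (limma, unadjusted p = 0.0368), and Atpif1, the inhibitor of ATP synthase, with -0.24 (limma, unadjusted p = 0.0445). Their count became 0 without ND 1, ND 2, ND 3, HFD 1 or HFD 3. Of 15 regulators of mitochondrial genes, 1 was called higher and 2 lower. Ppargc1b, a coactivator of the ERR and PPAR receptors, was at -0.99, -0.84 and -0.52 in ND and -0.20, -0.28 and -0.054 in HFD hearts (log2 fold change 0.60, SE 0.14; limma, unadjusted p = 0.0049, adjusted p = 0.247). The receptor gene Esrrb and the mitochondrial transcription and ribosome factor gene Tfb1m were the 2 lower, with -0.24 and -0.17. Their count became 0 with a slide row term or without ND 1, ND 2, HFD 1 or HFD 3, and 1 without ND 3 or HFD 2. Of all genes tested, 6.71% were called lower and 5.10% higher as reported. With 1 heart left out, 4.1% to 7.0% of all genes were called lower. None of the genes on these lists passed the adjustment.

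**Figure D4:**
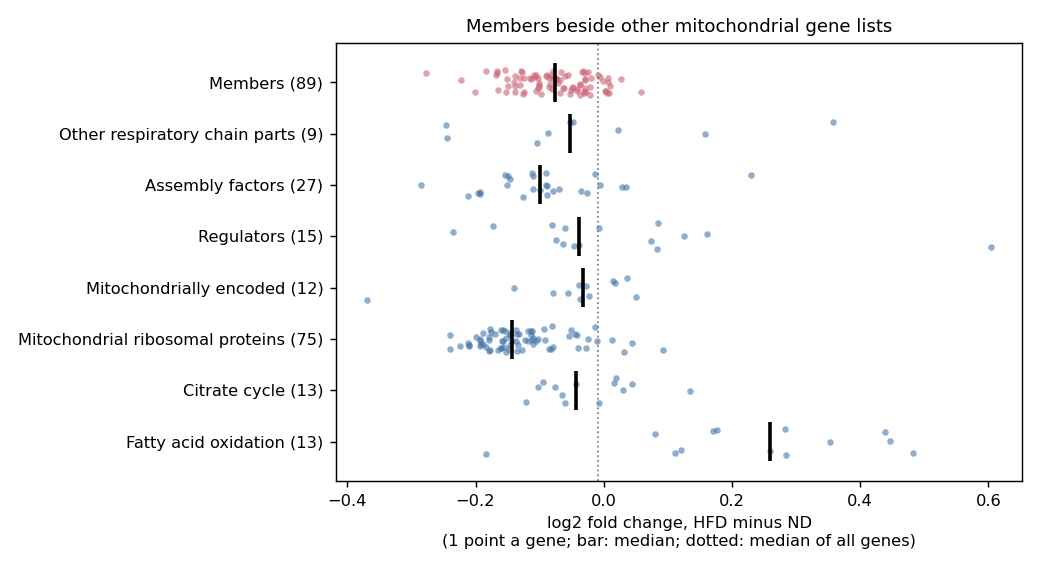
Log2 fold changes (HFD minus ND) are drawn with 1 point per gene for the 89 members and 7 other mitochondrial lists, with bars at the medians and a dotted line at the median of all genes. The members centre at -0.076 and the mitochondrial ribosomal proteins at -0.14, while the fatty acid oxidation genes centre at 0.26.

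Markers of other cell types were read beside these values. All 5 tested erythroid markers had HFD hearts below ND hearts, with a median of -0.64 and 4 called lower. Over all genes tested, 11.4% had all HFD hearts below all ND hearts, 6.71% were called lower and 5.10% higher. The 4 atrial markers had a median of -0.69 with 0 called, and 3 of 4 tested white adipocyte markers were lower with a median of -0.58 and 0 called, both with HFD 2 far below the rest. The mean atrial level was 7.89 in HFD 1 and 6.89 in HFD 3, against 4.73, 6.01 and 7.54 in ND. The mean white adipocyte level was -0.20 in HFD 1 and -1.45 in HFD 3, against -1.80, -1.01 and -0.83 in ND. On both lists only HFD 2 lay below all ND hearts. The 8 ventricular and general cardiomyocyte markers had a median of -0.029. Their mean level was 8.39 to 8.41 in ND, 8.39 in HFD 1, 8.48 in HFD 2 and 8.24 in HFD 3. The fibroblast and endothelial lists had medians of -0.050 and 0.0018, with 1 gene of each called lower. Of the skeletal muscle markers 2 of 6 were tested, with a median of -0.43 and 1 called lower, and of the brown adipocyte markers 2 of 4, with a median of 0.092 and 1 called higher. The part of these differences in the members' values was not tested.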

How the data were processed

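RNA of 6 mouse hearts (3 ND, 3 HFD) was measured on 1-colour Agilent arrays. The authors deposited 1 scanner table per array, whose intensity values Agilent Feature Extraction 10.7.1.1 had corrected for background within the array, with no normalization between arrays. They also deposited a table of log2 values, which matched a quantile normalization of the same intensities (median absolute difference 0.000445). It was used as an alternative. Probe positions are on mm9.

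Control and outlier spots were left out, spots of a probe were averaged, and log2 intensity minus the array's 75th percentile was tested where a probe was well above background throughout 1 group and had values from 2 or more arrays per group. limma 3.58.1 (lmFit, eBayes, two-sided, R 4.3.3) compared HFD with ND over 27587 probes with Benjamini-Hochberg adjustment. Following the methods' limit, an unadjusted p below 0.05 was called. The paper's text does not state the normalization. Each array measures 1 heart, so the number of arrays limits the precision.

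Genes were named by a rule: at most 5 called per direction and complex, filled to 3 by size of change, with the Sdh genes, the isoform pairs and the genes that are no subunits. From the other lists, the largest called rise and fall were named. Other genes in the text were chosen after their values were seen. The members and lists were chosen with earlier results of these data known. Gene symbols are those of the array, and 120 of the 126 probe accessions were found in RefSeq. Of the member probes, 3 lie on another chromosome than their gene, and none of these was the probe read. Scripts were tested on simulated data.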

Additional observations from a re-analysis of the deposited data

How the results depend on the processing

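Over 18 alternatives, 0 members were higher at an unadjusted p below 0.05 in limma and 0 passed the adjustment in any (lowest adjusted p 0.152). The count of members called lower, 4 as reported, was 0 with a slide row term, 1 with quantile normalization, without a filter on dim probes or with a replicate block, 2 in the authors' log2 table, 7 with the methods' t-test on the same values or with array weights, 8 with an intensity trend and robust variances, and 0 to 10 with 1 heart left out (0 without ND 1, 10 without HFD 2). Over all genes, the share called lower moved too, from 6.71% as reported to 4.79% with a slide row term, 6.47% with quantile normalization, 3.24% without the filter, 5.98% with the block, 6.67% in the authors' table, 7.15% with the t-test, 8.62% with array weights, 7.86% with trend and robust variances, and 4.1% to 7.0% with 1 heart left out. Among the named members the replicate block changed the calls of Ndufa11, Ndufaf3 and Atp5d. On the other lists it cut the ribosomal proteins called lower from 18 to 3, the assembly factors from 3 to 1, the other chain parts from 2 to 1 and the regulators from 2 to 0. The fatty acid oxidation genes called higher went from 7 to 6. With the block, 5.98% of all genes were called lower and 4.92% higher. Same-numbered hearts deviated together with r of -0.15, 0.15 and 0.19. With 3 hearts per group these values cannot tell whether the numbers pair the hearts, and the labels state no pairing.

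Quantile normalization moved the median of complex I to -0.028 and of complex V to 0.0079, and the authors' table moved the latter to 0.0052. A slide row term, which leaves HFD 3 against the ND hearts, moved the median of all members to -0.15, of complex II to -0.11, of III to -0.19, of IV to -0.11 and of V to -0.15. With 1 heart left out, the median of complex III ran from -0.17 to -0.052 and that of IV from -0.11 to -0.016.

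Signs turned for genes that were not called. With quantile normalization and in the authors' table these were Cox4i1 (0.017 and 0.015), Cox6a1 (0.045 and 0.042), Cox6a2 (0.043 in both), Cox8a (0.020 and 0.018), Cox8b (0.052 and 0.046), Ndufa4l2 (0.018 and 0.015), Atp5g2 (0.036 and 0.031) and Atp5g3 (0.024 and 0.020). Normexp turned Cox4nb (0.0035) and Ndufa4l2 (0.016). Array weights turned Ndufa4l2 (0.044), Sdha (-0.016) and Sdhb (-0.023). A slide row term turned Ndufa4l2 (0.16), Sdhc (-0.0018), Sdha (-0.11) and Sdhb (-0.11), and averaging probes turned Sdhb (-0.062). With 1 heart left out, the ranges were -0.089 to 0.0086 for Cox4i1, -0.068 to 0.015 for Cox4nb, -0.062 to 0.0084 for Cox6a1, -0.054 to 0.051 for Cox6a2, -0.14 to 0.0072 for Cox7a2, -0.53 to 0.064 for Cox7b2, -0.057 to 0.0056 for Cox8a, -0.11 to 0.016 for Cox8b, -0.078 to 0.074 for Ndufa4l2, -0.081 to 0.020 for Ndufaf4, -0.097 to 0.069 for Sdha and -0.044 to 0.065 for Sdhb. The cause was not tested. Of 648 gene values under alternatives, 554 kept direction and side of the limit, 33 lost and 14 gained the unadjusted call, and 47 turned.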
